A study of Sus scrofa with 11 samples.

Results

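The genes described here make sterols from acetyl-CoA or sense, export, move and store cholesterol. They were chosen by name, as the rows of the deposited gene table whose symbol is on a list of 31 symbols, and the table of 30376 genes held 30 of them. IDI1, an isomerase of the mevalonate route, has no row under that symbol. INSIG2 has 2 rows, the gene and a pseudogene on chromosome 7, so 31 rows were found and 30 of them passed the filter on low values. It asked for 0.5 FPKM or more (fragments scaled to gene length and to a factor per library) in 4 or more wounds. RNA was sequenced from full-thickness punch wounds on the backs of female Yucatan minipigs, a small pig breed used as a model of human skin. The diabetic group was 7 wounds of 1 minipig that received streptozotocin, a toxin of insulin-producing cells, at an age of 6 months, was kept for 60 days with insulin from shortly after induction, and was wounded after insulin had been stopped. The non-diabetic group was 4 wounds of 1 minipig that had the same surgery without streptozotocin, and its age is not given in the sources used here. All 11 wounds were excised on day 10, and each gave 1 library. Since each group is 1 animal, diabetes and the individual animal cannot be told apart, and every p-value below measures how wounds of a single animal vary.

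Cholesterol is built in 2 stretches. The mevalonate steps join acetyl units into farnesyl diphosphate, and the later steps join farnesyl units into squalene, close it into a ring and trim the ring into cholesterol. When sterols run low in the endoplasmic reticulum, the SCAP protein carries SREBP2 (the product of SREBF2) to the Golgi, where it is cut into a transcription factor that switches on most genes of the route. INSIG proteins hold SCAP back when sterols are plentiful. Oxidised sterols instead activate the liver X receptors (LXR), which switch on exporters such as ABCA1 and ABCG1. In skin, the epidermis makes much of its own cholesterol for the lipid barrier, and macrophages that clear dead cells export large amounts of it.

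Reads on genes per wound ranged from 28314785 to 40168372. In 2 wounds, diabetic replicate 4 and non-diabetic replicate 1, most epidermal genes were lower than in all others, more so in the first. The summed level of 13 keratinocyte markers was 48.4 FPKM in the first and 282 FPKM in the second, against 1880 to 7446 FPKM in the other 9 wounds, and KRT5, the basal keratin, was at 29.2 and 211 FPKM against 817 to 2861 FPKM. These wounds fall in different groups, so they are described below by their own values, without a test, and each comparison of diabetic with non-diabetic wounds is also given without them where that matters. In bulk tissue, fewer cells of a type and less RNA per cell cannot be told apart. Diabetic replicate 3 also held skeletal muscle transcripts (ACTA1 at 957 FPKM).

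The promoters of 4 members carry the letters that SREBP proteins are known to read, or lack them beside a gene of the same route, and are shown for that reason. They are the 250 bases before the annotated start, 5′ to 3′ in the direction of the gene, read from the Sscrofa11.1 genome at the starts given by the NCBI annotation of that assembly. Capitals mark matches to the sterol regulatory element in its core (TCACNCCAC) or short form (CACCCCAC), which overlap where both match, and to the NF-Y box (CCAAT), on either strand. HMGCS1 lies at chr16:27957262-27957511 (minus strand), SREBF2 at chr5:6784725-6784974 (minus strand), STARD4 at chr2:116257144-116257393 (minus strand) and FDPS at chr4:94514821-94515070 (minus strand).
HMGCS1: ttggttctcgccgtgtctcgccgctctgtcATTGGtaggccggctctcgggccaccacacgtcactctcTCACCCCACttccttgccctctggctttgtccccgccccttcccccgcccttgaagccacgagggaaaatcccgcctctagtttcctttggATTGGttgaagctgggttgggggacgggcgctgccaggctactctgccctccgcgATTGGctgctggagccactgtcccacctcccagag
SREBF2: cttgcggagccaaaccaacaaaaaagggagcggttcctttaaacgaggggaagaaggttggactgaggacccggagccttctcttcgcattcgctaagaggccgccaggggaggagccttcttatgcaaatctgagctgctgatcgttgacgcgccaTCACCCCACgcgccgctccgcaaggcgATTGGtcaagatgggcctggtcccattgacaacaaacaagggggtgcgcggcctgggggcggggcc
STARD4: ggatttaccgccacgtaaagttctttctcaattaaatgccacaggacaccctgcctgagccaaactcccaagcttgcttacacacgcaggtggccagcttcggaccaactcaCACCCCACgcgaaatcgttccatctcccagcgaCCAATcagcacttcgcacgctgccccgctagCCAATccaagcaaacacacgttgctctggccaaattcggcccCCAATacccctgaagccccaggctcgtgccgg
FDPS: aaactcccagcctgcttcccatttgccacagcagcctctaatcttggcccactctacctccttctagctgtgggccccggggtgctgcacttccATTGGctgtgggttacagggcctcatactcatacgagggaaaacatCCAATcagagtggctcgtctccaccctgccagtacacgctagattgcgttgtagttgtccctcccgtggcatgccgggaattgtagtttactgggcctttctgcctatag
HMGCS1 held the element 181 bases before the start with NF-Y boxes on both sides of it, and SREBF2 held it 93 bases before the start. STARD4 held the short form alone, 138 bases before the start, followed by 3 NF-Y boxes. FDPS, from the same route, held 2 NF-Y boxes and no match to either form. Over windows of 300 bases (250 before to 50 after the start), either form was found in 3 of the 29 members examined, HMGCS1, SREBF2 and STARD4, and in 3.04% of all 20663 protein-coding promoters. The NF-Y box stood in 21 of the 29 members, among them 14 of the 15 synthesis genes examined, against 35.7% of all promoters. The E-box CACGTG was found in 4 members (PMVK, SC5D, INSIG1 and ABCA1) and in 7.64% of all promoters. No member held the LXR-type direct repeat of AGGTCA spaced by 4 bases, which is in 0.00968% of all promoters. Member promoters were richer in G and C (median 64.3%) than all promoters (median 58.0%), and a match says only that the letters are present. Other forms of the sterol regulatory element were not searched, so a promoter without a match may still hold a site that SREBP reads.

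Between diabetic and non-diabetic wounds, no sterol or cholesterol gene of the list passed the test. On log2(FPKM + 0.5), limma called 0 of the 30 members at both thresholds, an adjusted p below 0.05 and a log2 difference beyond 0.5 in either direction, against a share of 3.00% over the 13956 genes tested (1.35% with diabetic wounds higher, 1.66% with them lower). At an unadjusted p under 0.05 there were 3 members, ABCA1, ABCG1 and MYLIP, all lower in diabetic wounds, against 18.4% of all genes in either direction (9.01% higher and 9.39% lower). Voom on the recovered reads called 0 members as well (2.31% of all genes), and 5 at an unadjusted p under 0.05 (15.3% of all genes). The median log2 difference was 0.07 over the members, with 18 positive and 12 negative, and 0.01 over all genes tested. By role the medians ran from 0.19 for the 6 mevalonate genes, 0.08 for the 10 squalene and sterol genes and 0.07 for the 4 sensing genes to -0.10 for the 4 transport genes and -0.16 for the 6 genes of the LXR group.

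The wounds poor in epidermal genes showed a larger difference, and it lay in the synthesis genes. In 15 of the 30 members both of these wounds were below all of the other 9, against 10.8% of all genes tested, and 12 of the 15 were synthesis genes. No member was above the other 9 in both wounds, against 5.65% of all genes. Averaged over the pair, the level of the 16 synthesis genes was below the mean of the other 9 wounds for every gene, with a median difference of -0.88 on the log2(FPKM + 0.5) scale, where the median over all genes was 0.00. The corresponding medians were -0.34 for the sensing genes, -0.19 for the transport genes and 0.32 for the LXR group. Diabetic replicate 4 was the lowest of all 11 wounds for 12 of the 16 synthesis genes and non-diabetic replicate 1 for 3. Diabetic replicate 2 was the highest for 8 of the 16.

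**Figure D1:**
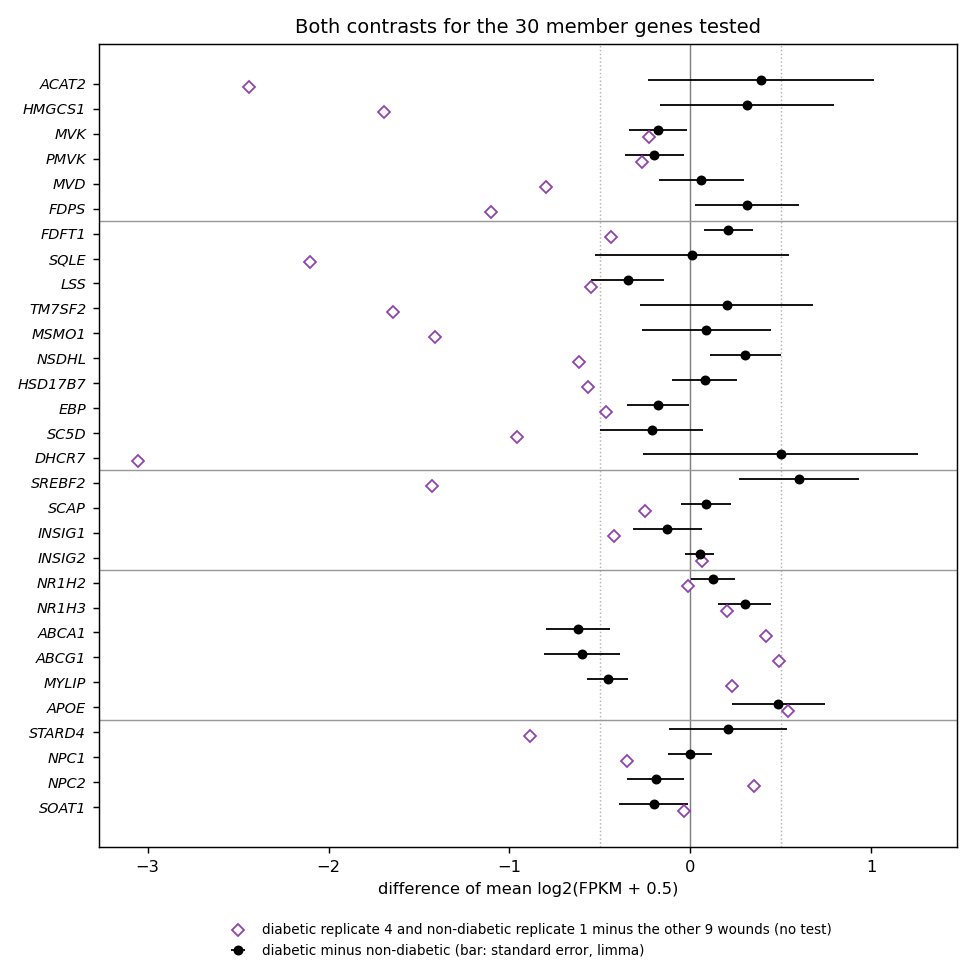
For each of the 30 tested genes, the black point is the diabetic minus non-diabetic difference of mean log2(FPKM + 0.5) with its standard error from limma, and the open diamond is the mean of diabetic replicate 4 and non-diabetic replicate 1 minus the mean of the other 9 wounds, with no test. Grey lines separate the roles and dotted lines mark 0.5 in each direction. The diamonds of the synthesis genes lie to the left of 0, down to -3.05 for DHCR7, while the black points lie between -0.62 and 0.60.

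Of the mevalonate genes, ACAT2 and HMGCS1 spread the most between wounds in fold. ACAT2, the thiolase that joins acetyl-CoA units, was at 3.75 FPKM in diabetic replicate 4 and 5.25 FPKM in non-diabetic replicate 1, against 16.4 to 43.3 FPKM in the other 6 diabetic wounds and 25.6, 29.0 and 16.6 FPKM in the other 3 non-diabetic wounds. HMGCS1, the synthase of the next step, was at 4.95 and 7.54 FPKM in those wounds, against 12.3 to 42.6 FPKM and 16.5, 22.0 and 16.2 FPKM in the same order. For both genes the other diabetic and the other non-diabetic wounds overlapped, and only the epidermis-poor pair stood apart, at 17.6% and 30.4% of the median of the other 9 wounds. Their diabetic minus non-diabetic log2 differences were 0.39 (SE 0.62, adjusted p = 0.797, limma) and 0.31 (SE 0.48, adjusted p = 0.790, limma). Leaving out 1 wound of the pair moved both: without non-diabetic replicate 1 they were -0.12 and 0.011, and without diabetic replicate 4 they were 0.79 and 0.61.

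FDPS, which makes farnesyl diphosphate, was the most abundant mevalonate gene. It was at 16.6 FPKM in diabetic replicate 4 and 22.7 FPKM in non-diabetic replicate 1. In the other diabetic wounds it ran from 37.8 to 56.7 FPKM, and in the other non-diabetic wounds it was at 35.8, 37.5 and 33.9 FPKM. Once the epidermis-poor pair is set aside, every diabetic wound was thus above every non-diabetic wound, although with all 11 wounds the difference was 0.31 (SE 0.29, adjusted p = 0.621, limma) and without the pair 0.36 (adjusted p = 0.239, limma). It was 0.15 without non-diabetic replicate 1 alone and 0.52 without diabetic replicate 4 alone. MVD, the decarboxylase of the route, was at 3.76 and 4.67 FPKM in the pair and at 5.51 to 9.28 FPKM (median 7.82) elsewhere. For the kinases MVK and PMVK the pair did not lie apart, though its mean was 74.9% and 84.5% of the median of the other 9 wounds. MVK was low throughout, at 0.501 to 1.32 FPKM in diabetic and 0.892 FPKM or more in non-diabetic wounds. Its lowest wound was diabetic replicate 1. PMVK was at 1.63 FPKM (replicate 4) to 3.88 FPKM in diabetic and 2.58 to 3.10 FPKM in non-diabetic wounds. A gene described in the reference as an isopentenyl-diphosphate isomerase (LOC100625049, chromosome 10), which the list of symbols does not include, was at 4.08 and 5.78 FPKM in the pair and 7.64 to 17.5 FPKM in the other wounds, with a diabetic difference of 0.07 (SE 0.32, adjusted p = 0.939, limma).

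Among the squalene and sterol genes, DHCR7, the reductase of a last step to cholesterol, had the widest range, in fold, of all members tested. It was at 0.925 FPKM in diabetic replicate 4 and 2.90 FPKM in non-diabetic replicate 1. The other diabetic wounds lay between 14.9 and 25.5 FPKM and the other non-diabetic wounds at 21.0, 11.5 and 10.8 FPKM, so the mean of the pair was 9.85% of the median of the other 9. SQLE, the epoxidase that prepares squalene for ring closure, was at 1.97 and 3.39 FPKM in the pair against 9.67 to 17.6 FPKM (median 12.2) elsewhere. TM7SF2, a sterol reductase, was at 0.865 and 0.814 FPKM against 1.88 to 6.97 FPKM (median 3.76). MSMO1, an oxidase that removes methyl groups from the ring, was at 5.98 and 7.59 FPKM against 15.5 to 23.8 FPKM (median 18.3). On the log2 scale the pair differed from the rest by -1.41 (MSMO1) to -3.05 (DHCR7) in these 4 genes. In the diabetic comparison, where none passed the test, their log2 differences were 0.50 (DHCR7, SE 0.76), 0.01 (SQLE, SE 0.54), 0.20 (TM7SF2, SE 0.48) and 0.09 (MSMO1, SE 0.36).

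The other sterol genes differed less between the pair and the rest. SC5D, a desaturase, was at 0.847 and 1.10 FPKM against 1.40 to 3.48 FPKM (median 2.38) in the other 9 wounds. NSDHL, which works with MSMO1, was at 4.75 and 4.54 FPKM against 5.18 to 10.2 FPKM (median 7.10). HSD17B7, a reductase of the same step and the most abundant sterol gene by its mean, was at 14.2 FPKM in diabetic replicate 4 and, in the pair as a whole, at 69.0% of the median of the others, against 18.1 to 27.8 FPKM (median 21.8). FDFT1, which makes squalene, was at 8.62 and 8.05 FPKM against 9.81 to 13.9 FPKM (median 11.2). Its mean log2 difference (-0.44) was the smallest in size of the 12 synthesis genes low in both wounds. In LSS, the cyclase that closes the ring, diabetic replicate 4 was lowest at 8.17 FPKM, but non-diabetic replicate 1 (14.5 FPKM) lay within the range of the other wounds (12.1 to 23.8 FPKM). EBP, an isomerase, did likewise, with 8.77 FPKM in diabetic replicate 4 at the bottom, while non-diabetic replicate 1 (12.5 FPKM) was above diabetic replicates 6 and 7. None of these 6 genes passed the limma test between the groups, with adjusted p between 0.401 (LSS) and 0.862 (HSD17B7).

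**Figure D2:**
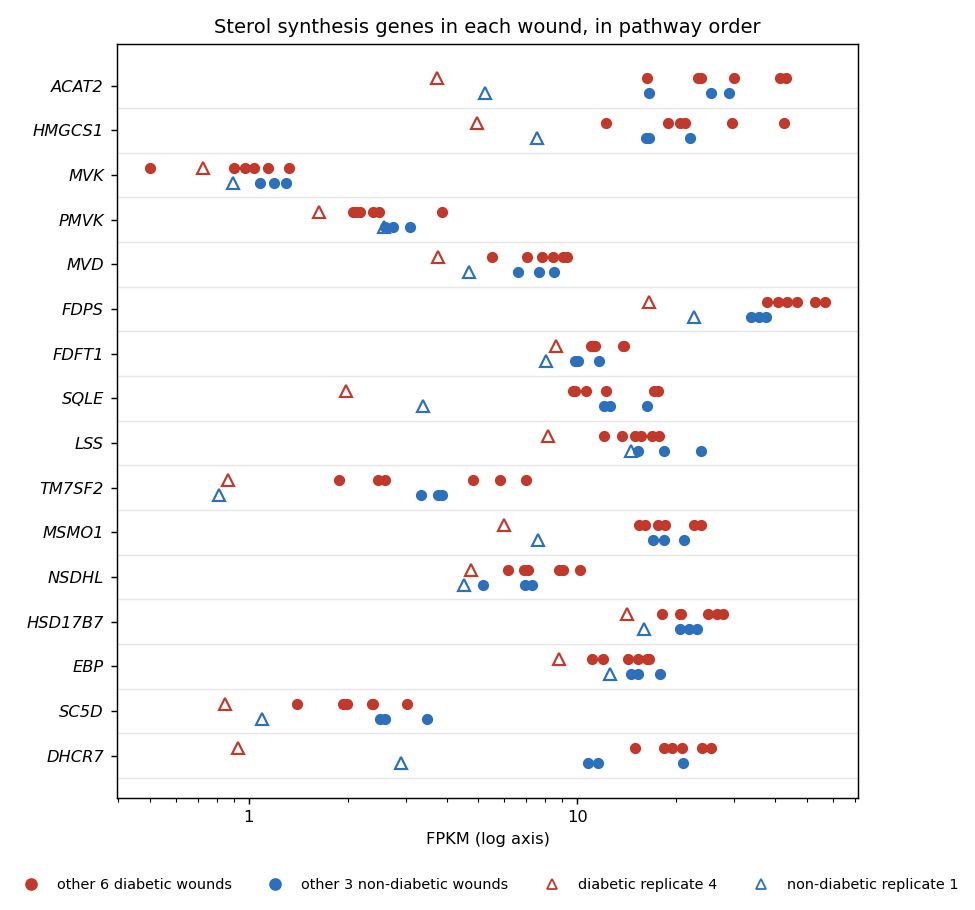
Level of the 16 sterol synthesis genes in each of the 11 wounds in FPKM on a log axis, ordered along the route, with diabetic wounds in red and non-diabetic wounds in blue. Open triangles are diabetic replicate 4 and non-diabetic replicate 1. In ACAT2, HMGCS1, SQLE, MSMO1 and DHCR7 both triangles lie left of all filled points, while in MVK they lie among them.

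Summed over the 16 genes, the synthesis level was 86.5 FPKM in diabetic replicate 4 and 115 FPKM in non-diabetic replicate 1, and 191 to 312 FPKM in the other 9 wounds. Of the 13 keratinocyte markers, 12 were below the other wounds in both members of the pair, KRT15 being the exception. Among the other 9 wounds the markers did not all move together. In diabetic replicates 6 and 7 the sum was mostly KRT1 (2940 and 2561 FPKM) and KRT10 (1960 and 1207 FPKM), keratins of the upper epidermis, which were at 37.8 to 445 FPKM in the other 7. The basal keratin KRT5 was at 1440 to 2861 FPKM in diabetic replicates 1, 2 and 3 and non-diabetic replicates 2 and 3, whose mean log2 levels of the synthesis genes were 3.43 to 3.78. It was at 817 to 1278 FPKM in the remaining 4 wounds, whose synthesis means were 3.24 to 3.34. TP63, the transcription factor of basal keratinocytes, was likewise at 8.49 to 18.6 FPKM in the former and 6.87 to 7.10 FPKM in the latter. DSG3 and DSC3 also separated these sets of wounds, but every other marker of the list overlapped between them. KRT15 was at 0.679 to 18.8 FPKM in the former and 0.943 to 25.9 FPKM in the latter, and CDH3 at 16.6 to 41.1 and 10.6 to 34.6 FPKM. These sets were formed from the values shown, not in advance. They also nearly follow the first letter of the library names, L or R. The set with higher KRT5 held every L wound outside the pair and non-diabetic replicate 3, an R wound. The other set held R wounds only. The parts of the markers and of the letter in the synthesis level were not tested. Of 6 neutrophil genes, 4 (S100A8, S100A9, S100A12 and CXCR2) were below the other 9 wounds in both members of the pair. The sum of the 6 was 41.4 and 300 FPKM in the pair against 3800 to 12590 FPKM elsewhere. Most of it was S100A8, S100A9 and S100A12, which stressed keratinocytes also express. CSF3R was at 3.70 FPKM in diabetic replicate 4, above non-diabetic replicate 2 (3.45 FPKM), but non-diabetic replicate 1 (2.75 FPKM) was the lowest of all 11 wounds. MPO was at 0.244 FPKM in non-diabetic replicate 1, also above non-diabetic replicate 2 (0.142 FPKM), but diabetic replicate 4 (0.0259 FPKM) was the lowest of all 11 wounds. Of 12 markers of sebaceous glands, another place of high lipid synthesis, AWAT1 and MOGAT1 were at 0 in all 11 wounds and 6 in all, these included, were under 0.5 FPKM throughout. The sum of the 12 was 14.6 to 48.2 FPKM, with 33.7 and 28.2 FPKM in the pair, and came mostly from CIDEA (2.25 to 28.4 FPKM) and FADS2 (9.17 to 25.3 FPKM), which fat and other cells also express. Fibroblast markers summed to 50488 and 65170 FPKM in the pair and to 19216 to 52912 FPKM elsewhere. The part of these cell types in the lower synthesis level was not tested.

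**Figure D3:**
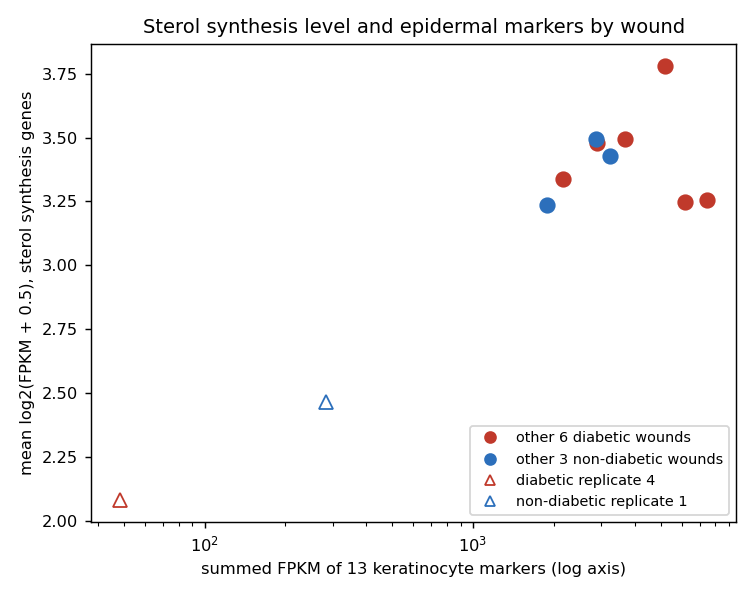
Mean log2(FPKM + 0.5) of the 16 synthesis genes against the summed FPKM of 13 keratinocyte markers (log axis), 1 point per wound. Diabetic replicate 4 (48.4 FPKM, 2.08) and non-diabetic replicate 1 (282 FPKM, 2.46) lie at the lower left, and the other 9 wounds lie between 3.24 and 3.78 on the vertical axis. The sums farthest to the right, those of diabetic replicates 6 and 7, are mostly KRT1 and KRT10.

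Of the sensing genes, SREBF2 alone had both wounds of the pair below the other 9. SREBF2 was at 10.4 FPKM in diabetic replicate 4 and 8.19 FPKM in non-diabetic replicate 1, against 26.3 to 32.1 FPKM in the other 6 diabetic wounds and 22.3, 23.0 and 16.8 FPKM in the other 3 non-diabetic wounds. Outside the pair the groups did not overlap, and diabetic wounds were higher. With all 11 wounds the log2 difference was 0.60 (SE 0.33, adjusted p = 0.373, limma), and without the pair it was 0.48 (SE 0.12, adjusted p = 0.0886, limma). With the keratinocyte marker level as a covariate it was 0.41 (SE 0.12, adjusted p = 0.0865, limma), so the call was missed in each fit. Leaving out 1 wound of the pair moved it the most, to 0.28 without non-diabetic replicate 1 (adjusted p = 0.705, limma) and 0.80 without diabetic replicate 4 (adjusted p = 0.0997, limma). SCAP lay between 13.3 and 22.1 FPKM over all wounds. INSIG1, itself a target of SREBP, was lowest in diabetic replicate 4 (6.54 FPKM), but non-diabetic replicate 1 (7.94 FPKM) was above non-diabetic replicate 2 (7.70 FPKM) and diabetic replicate 6 (7.33 FPKM). The mean of the pair was still lower for INSIG1, at 69.2% of the median of the other 9 wounds, and at 84.4% for SCAP. INSIG2 was the steadiest member, at 2.61 to 3.30 FPKM in all 11 wounds, with a diabetic difference of 0.05 (SE 0.08, adjusted p = 0.788, limma). Its pseudogene had at most 5 reads in any wound and was not tested by limma.

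In the LXR group the exporters had lower mean levels in diabetic wounds, short of the adjusted threshold, and the receptors had slightly higher ones. ABCA1, which loads cholesterol onto lipid-poor apolipoproteins, ran from 7.86 FPKM through a median of 9.81 FPKM to 16.5 FPKM in diabetic wounds and was at 18.9, 15.4, 16.9 and 17.9 FPKM in non-diabetic wounds. Diabetic replicate 1 alone reached into the non-diabetic range. The log2 difference of -0.62 (SE 0.18) missed the threshold after adjustment (adjusted p = 0.0833, limma; exact permutation p = 0.0182, two-sided). It passed with library weights (-0.69, adjusted p = 0.0125, limma) and without diabetic replicate 1 (-0.72, adjusted p = 0.0259, limma), and in none of the other 23 settings. ABCG1, which exports to mature lipoproteins, ran from 2.05 through 3.22 to 4.92 FPKM in diabetic wounds against 6.25, 5.48 and 4.45 FPKM in non-diabetic replicates 1 to 3, with a non-diabetic mean of 5.39 FPKM, and its difference was -0.60 (SE 0.21, adjusted p = 0.149, limma; exact permutation p = 0.0303). The groups overlapped in diabetic replicates 4 and 7, which were above the lowest non-diabetic wound.

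MYLIP, a ubiquitin ligase that marks lipoprotein receptors for breakdown, was the member whose groups did not overlap (5.65% of all genes did not, 2.96% with diabetic wounds lower and 2.69% with diabetic wounds higher). It ran from 6.69 through 7.98 to 9.06 FPKM in diabetic wounds against 11.7, 12.8, 9.83 and 9.47 FPKM in non-diabetic wounds. The difference of -0.46 (SE 0.11) had an adjusted p of 0.0498 (limma; exact permutation p = 0.00303, the smallest that 330 splits can give), and its size was under the 0.5 asked of a call. Its adjusted p was under 0.05 in 5 of the 25 other settings and ranged from 0.0373 to 0.551. At an adjusted p under 0.05 whatever the fold, it was the 1 member of 30, against 3.58% of all genes.

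APOE, the apolipoprotein that macrophages and fibroblasts secrete with cholesterol, was the most abundant member and leaned the other way. It ran from 351 through 628 to 839 FPKM in diabetic wounds against 577, 381, 323 and 408 FPKM in non-diabetic wounds, and diabetic replicates 1 and 2 lay among the non-diabetic values. Its log2 difference was 0.49 (SE 0.26, adjusted p = 0.343, limma), and it was called with library weights only (0.67, adjusted p = 0.0446, limma). NR1H3, the LXR form of macrophages and fat, ran from 14.2 through 17.2 to 21.1 FPKM against 16.4, 14.9, 10.0 and 14.4 FPKM (0.30, SE 0.15, adjusted p = 0.309, limma). NR1H2, the form found in most cells, lay between 27.5 and 42.0 FPKM in diabetic and 29.8 and 33.5 FPKM in non-diabetic wounds (0.13, SE 0.12, adjusted p = 0.648, limma). Macrophage markers, 12 genes, summed to 761 to 1756 FPKM in diabetic and 495 to 927 FPKM in non-diabetic wounds. Of the 12, 4 (MRC1, ITGAM, MARCO and CD14) were called higher in diabetic wounds, against 1.35% of all genes tested. The others were not called, and MSR1 leaned lower (-0.29, SE 0.22, adjusted p = 0.532, limma). The part of macrophages in the levels of the LXR group was not tested.

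**Figure D4:**
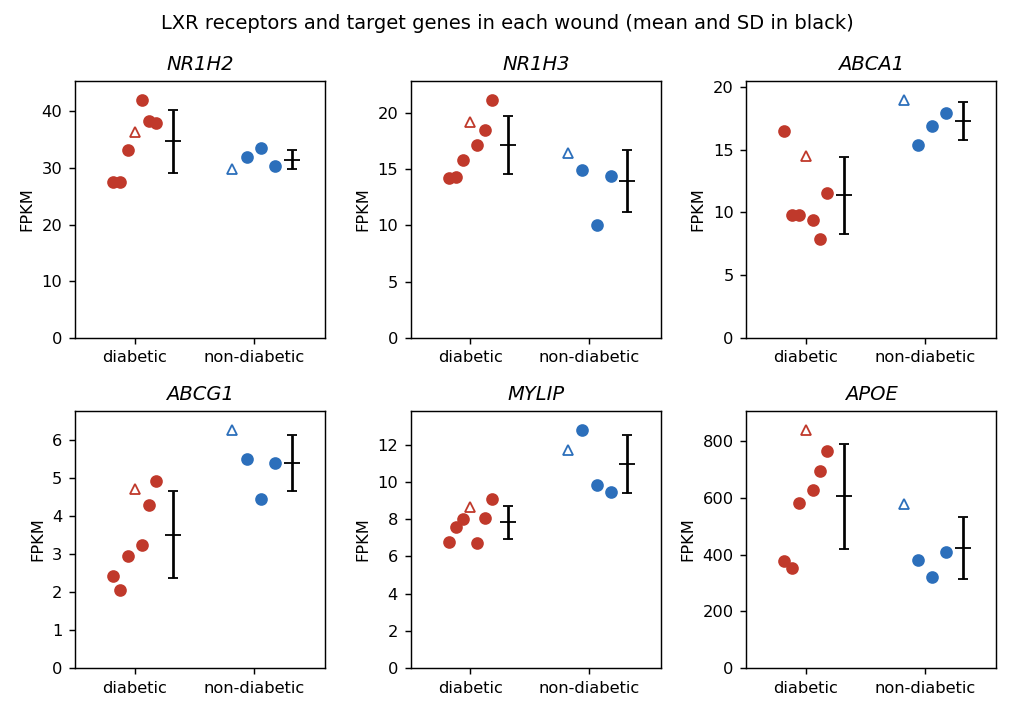
Level in FPKM of the LXR receptors NR1H2 and NR1H3 and of the LXR targets ABCA1, ABCG1, MYLIP and APOE in the 7 diabetic (red) and 4 non-diabetic (blue) wounds, with the mean and SD of each group in black and diabetic replicate 4 and non-diabetic replicate 1 as open triangles. ABCA1, ABCG1 and MYLIP have lower diabetic means, and in MYLIP alone the groups do not overlap.

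The transport and storage genes showed no difference between the groups past the test. STARD4, which carries sterol between membranes, was scarce and followed the synthesis genes, at 0.352 and 0.271 FPKM in the pair against 0.438 to 1.89 FPKM (median 1.12) in the other 9 wounds. NPC1, which moves cholesterol out of lysosomes, was at 5.01 and 5.43 FPKM against 5.84 to 7.42 FPKM (median 7.03), a gap of -0.35 on the log2 scale. Its partner NPC2, the most abundant of the 4, went the other way in the pair, at 214 and 248 FPKM against 138 to 239 FPKM. By group, NPC2 ran from 138 through 184 to 239 FPKM in diabetic wounds and was at 248, 207, 185 and 186 FPKM in non-diabetic wounds (-0.19, SE 0.16, adjusted p = 0.571, limma). SOAT1, which esterifies cholesterol for storage in droplets, was at 5.11 to 11.3 FPKM in diabetic and 7.14 to 10.7 FPKM in non-diabetic wounds (-0.20, SE 0.19, adjusted p = 0.629, limma).

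Within the 9 wounds outside the epidermis-poor pair, the groups did not overlap in 3 members. These were FDPS and SREBF2 with diabetic wounds higher and MYLIP with diabetic wounds lower. Over all genes the share was 9.54% (5.02% higher and 4.52% lower), so 3 of 30 members is near the background. Limma called 0 members over these 9 wounds (1.36% of all genes). Of the 29 members whose promoters were examined, 14 were low in both epidermis-poor wounds. The 3 with a match to either searched form of the sterol regulatory element, HMGCS1, SREBF2 and STARD4, were among these 14. An NF-Y box stood in 12 of the 14 and in 9 of the 15 other members, but most of the 14 were synthesis genes. Among the synthesis genes examined, only MSMO1 lacked the box, and it was low in both wounds. MVK, PMVK, LSS and EBP, which were not low in both, all held it.

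Library names start with L or R, a letter whose meaning the labels do not state, and 3 of the 7 diabetic wounds carry L. Within the diabetic wounds, every L wound was above every R wound in ACAT2, HMGCS1, FDFT1, NSDHL and EBP, all of them synthesis genes, and below in NR1H2, NR1H3, ABCG1, APOE and NPC2 (10.2% and 12.3% of all genes). Leaving out diabetic replicate 4, an R wound, cannot undo such a separation, and it added no further member. For APOE the L wounds were at 379, 351 and 582 FPKM and the R wounds at 839, 628, 694 and 765 FPKM. For HMGCS1 they were at 29.5, 42.6 and 21.3 FPKM and at 4.95, 20.5, 12.3 and 18.9 FPKM. Whether the diabetic difference depended on the letter was tested by an interaction in limma, which called 0 members, against 6.46% of all genes. The smallest adjusted p was that of NPC2 (0.0567). Without the epidermis-poor pair the interaction called 0 members and 0.00726% of all genes.

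A second list of 61 sterol and cholesterol genes outside the members had 54 rows and 48 genes tested, of which limma called 1 higher and 1 lower in diabetic wounds (3.00% of all genes). RNF145, a ubiquitin ligase tied to sterol sensing, ran from 21.1 through 26.2 to 32.5 FPKM in diabetic wounds and was at 50.9, 42.7, 41.3 and 38.9 FPKM in non-diabetic wounds. The groups did not overlap, and the difference was -0.73 (SE 0.14, adjusted p = 0.0143, limma). SCARB1, a receptor that exchanges cholesterol with high-density lipoprotein, ran from 26.0 through 35.9 to 42.4 FPKM against 23.5, 23.1, 22.6 and 18.6 FPKM, again without overlap, and was higher by 0.69 (SE 0.14, adjusted p = 0.0183, limma). Without non-diabetic replicate 1 the adjusted p was 0.0583 for RNF145 and 0.0510 for SCARB1, and SCARB1 also missed the threshold without non-diabetic replicate 3 (0.0552) or 4 (0.0659).

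The remaining genes with the largest differences on that list were not called. SULT2B1, a sulfotransferase that makes cholesterol sulfate in the epidermis, was at 0.109 FPKM in diabetic replicate 4 and 0.303 FPKM in non-diabetic replicate 1, against 21.2 to 62.9 FPKM in the other diabetic and 16.7, 9.53 and 10.6 FPKM in the other non-diabetic wounds (1.69, SE 1.22, adjusted p = 0.510, limma). CES1, a cholesterol and lipid esterase, was at 0.881 to 5.31 FPKM in diabetic and 4.55 to 7.74 FPKM in non-diabetic wounds (-1.09, SE 0.33, adjusted p = 0.102, limma). ACLY and ACSS2, which supply the acetyl-CoA that both sterols and fatty acids start from, were at 20.0 to 34.7 against 31.1 to 133 FPKM (-0.97, SE 0.32, adjusted p = 0.124, limma) and 5.53 to 10.7 against 9.24 to 31.3 FPKM (-0.88, SE 0.27, adjusted p = 0.101, limma). For both, non-diabetic replicate 3 was the highest wound. The median over the 48 genes was -0.02, against 0.01 over all genes.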

How the data were processed

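Bulk RNA was sequenced from 11 wounds (7 diabetic, 4 non-diabetic). The library was polyA-selected and strand-specific. Per the labels and methods, the authors cleaned reads with fastp, aligned to Sscrofa11.1 by HISAT2 2.2.1, assembled with StringTie 2.2.3, counted with featureCounts 2.0.6 and deposited FPKM values; the FPKM formula is not given in the sources used here. FPKM times gene length gave whole reads for 100% of values within 0.05 reads, and 1 read on a 2 kb gene was worth 0.0112 to 0.0194 FPKM. It was worth 0.0112 FPKM in diabetic replicate 2 (37922563 reads on genes) and 0.0127 FPKM in diabetic replicate 3 (40168372). The factor per library thus did not follow reads on genes alone. Of 30376 genes, 30335 identifiers were found in the reference annotation with the same start.

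The 13956 genes that reached 0.5 FPKM in 4 or more libraries entered limma 3.58.1 (lmFit, eBayes with trend, R 4.3.3) as log2(FPKM + 0.5), since the values are not counts, and p-values were Benjamini-Hochberg adjusted over all of them. A call needed an adjusted p below 0.05 and a log2 difference beyond 0.5 in either direction, and a fold on this scale understates the change of low genes. Single members also had an exact permutation test, two-sided, over 330 splits (NumPy 2.4.6). The fit was tested on simulated data. Diabetic replicate 4 and non-diabetic replicate 1 were set apart by epidermal genes in these data and get no test. Members, lists and this split were chosen with earlier results of these data known. Values per wound were given for members called in any setting, at an unadjusted p under 0.05, without overlap, low in both wounds of the pair, or largest in their role; of the second list, the called genes and the 5 largest differences. The alternatives, 25 in all for the group comparison, changed the pseudocount, filter, scaling, spread estimate, weights, covariates, a replicate block and the wounds included, and voom on recovered reads. Promoters were read from Sscrofa11.1 by coordinates, and that of 1 tested member is not reported here.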

Additional observations from a re-analysis of the deposited data

Results flagged for a closer look

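In 4 of 62 groups of wounds examined, the highest or lowest wound stood farther from the rest than Dixon's 95% limit allows; chance flags about 1 group in 20. PMVK in diabetic wounds was highest in replicate 6, at 3.88 FPKM, with the next wound at 2.49 FPKM. DHCR7 was lowest in diabetic replicate 4, at 0.925 FPKM, with the next wound at 14.9 FPKM. SREBF2 was lowest in the same wound, at 10.4 FPKM, with the next at 26.3 FPKM. The INSIG2 pseudogene was highest in non-diabetic replicate 3, at 0.146 FPKM, with the other non-diabetic wounds at 0. Epidermal genes were low in diabetic replicate 4 as well, and their part in its DHCR7 and SREBF2 levels was not tested.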

How the results depend on the processing

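Between diabetic and non-diabetic wounds the main setting called 419 genes and 0 members, and 25 alternatives were tried. Library weights gave 822 genes and 2 members (ABCA1, APOE), and leaving out the epidermis-poor pair, diabetic replicate 4 and non-diabetic replicate 1, gave 187 genes. Leaving out 1 wound at a time gave 181 to 483 genes and 0 to 1 members, ABCA1 being called without diabetic replicate 1. On the second list, with 2 calls, leaving out the pair gave 0 and 1 wound at a time 0 to 3. The interaction with the library letter, with 901 genes, gave 29 without the filter, 18 with quantile normalization, 2851 with voom, 3374 with library weights, 10 with the keratinocyte covariate, 1 without the pair and 0 to 3303 with 1 wound left out. Of 748 alternative fold changes of members, 712 kept their direction and side of the threshold, 3 passed it (ABCA1 in 2 settings, APOE in 1) and 33 changed sign, none of those past the threshold.

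Replicate numbers are shared between the groups, but same-numbered wounds did not deviate together (correlations -0.27, 0.22, 0.07 and -0.48), so they share only a number. With a replicate block 16 genes (11 higher, 5 lower), 0 members and 0 genes of the second list were called, and the sign turned for MVD (-0.039), SQLE (-0.070) and NR1H2 (-0.022). It also turned with the keratinocyte covariate for MVD (-0.059), SQLE (-0.29), TM7SF2 (-0.037) and MSMO1 (-0.11), with library weights for SQLE (-0.22) and MSMO1 (-0.054), with quantile normalization for SQLE (-0.033) and HSD17B7 (-0.0089), with median-of-ratios rescaling for SQLE (-0.00056), and without the pair for SQLE (-0.11) and SCAP (-0.014). With 1 wound left out, differences ranged from -0.12 to 0.79 for ACAT2, -0.097 to 0.20 for MVD, -0.45 to 0.35 for SQLE, -0.21 to 0.43 for TM7SF2, -0.22 to 0.31 for MSMO1, -0.030 to 0.17 for HSD17B7, -0.018 to 1.05 for DHCR7, -0.023 to 0.22 for SCAP, -0.012 to 0.38 for STARD4 and -0.081 to 0.057 for NPC1. The cause of these changes was not tested.

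The count of 15 members low in both wounds of the pair was 12 with quantile normalization, 15 with median-of-ratios rescaling and 16 per reads on genes, alternatives chosen after seeing the data. No setting moved the median of all genes by over 0.1. MVK and STARD4 were under the filter of 1 FPKM in 7 libraries and have 24 alternatives each.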
